A study of Mus musculus with 7 samples.

Results

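The comparison described here is between mouse embryonic fibroblasts lacking both p53 and Dnmt1 (p53-/- Dnmt1-/-) and fibroblasts lacking p53 alone (p53-/-), matched by time in TSA (trichostatin A, an inhibitor of histone deacetylases). It uses 6 of the 7 arrays of the study: p53-/- Dnmt1-/- cells untreated (0 h) and after 24 h and 48 h of TSA, and p53-/- cells untreated and after 24 h and 48 h, with 1 array for each. The arrays form 3 pairs of equal time, and all 22626 probe sets other than the manufacturer's controls were compared. Both genotypes lack p53. The labels state neither the TSA dose nor the clones, cultures or sex behind a genotype, and Trp53 was not analysed here. Loss of Dnmt1 therefore cannot be told apart from other differences between the cells used for each genotype. The array of p53-/- Dnmt1-/- cells taken 2 weeks after TSA removal has no p53-/- counterpart and was left out of the comparison.

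Dnmt1 copies the methylation of CG dinucleotides (CpG) onto the new DNA strand after replication, and cells without it lose methylation as they divide. DNA methylation keeps a set of germline genes, one copy of each imprinted gene and the inactive X chromosome silent. Cells with p53 stop or die when Dnmt1 is removed, and fibroblasts without p53 tolerate the loss for longer. TSA raises histone acetylation, another layer of chromatin control, so a genotype difference seen at every time in TSA is one that was present with and without that treatment.

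Levels are the authors' MAS5 signals, in arbitrary linear units, and the median signal of an array lay between 44.0 and 48.8 on these 6 arrays. Differences are in log2(signal + 11.4), as p53-/- Dnmt1-/- minus p53-/- at the same time. A mean difference is the average over the 3 times and is followed by its standard error (SE, 3 arrays per genotype) from limma. A probe set was called higher or lower when the limma p-value, adjusted over all 22626 probe sets by Benjamini and Hochberg, was under 0.05. A gene with several probe sets was taken at the one with the highest mean level, over 12393 genes in all. The p-values measure the spread of the difference over times, which may be technical, because no time had a replicate culture.

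The genotype labels were checked against Dnmt1. Its signal was 206.5, 74.0 and 109.5 in p53-/- Dnmt1-/- cells at 0, 24 and 48 h, against 695.6, 384.4 and 308.2 in p53-/- cells. The groups did not overlap, and the mean difference was -1.77 ± 0.19 (limma adjusted p = 0.00279). Another probe set gave 101.0, 13.2 and 47.3 against 413.1, 198.1 and 156.6. No source used here places these probes relative to the deleted part of the gene. The label "fibroblast" was checked with 14 markers of fibroblasts: 13 had a signal above 45.6, the pooled median of all signals, on all 3 p53-/- arrays, and 10 on all 3 p53-/- Dnmt1-/- arrays. Their summed signal was 13300.9, 15434.2 and 16810.0 in p53-/- Dnmt1-/- cells, against 30122.1, 33490.3 and 35999.3 in p53-/- cells. Of these 14 markers 10 were called lower and 1 (Dcn) higher, beside 11.1% and 11.0% of all genes, with a median difference of -2.0. Vim, the intermediate filament protein of mesenchymal cells, was among those not called, with signals of 4499.1 or more on every array. Of 8 mesothelial markers on the array, all 8 were called higher in p53-/- Dnmt1-/- cells, beside 11.0% of all genes. Their sums were 8912.9, 10087.6 and 11918.6 against 264.1, 383.3 and 118.9. These markers were chosen with earlier results of these data known. Upk3b, Wt1, Msln and Gpm6a among them are also among the genes furthest up described below, so they are no independent check. In such bulk RNA a change in the share of cells of one type and a change of RNA per cell cannot be told apart.

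Among probe sets, 2137 (9.44%) were higher and 2312 (10.2%) lower in p53-/- Dnmt1-/- cells by limma, and by gene 1362 (11.0%) were higher and 1376 (11.1%) lower. Every one of these calls had the same sign at all 3 times. With 3 pairs, a call at this threshold requires that, so it is no separate sign of consistency. Without any test, 6985 probe sets (30.9%) were above and 5390 (23.8%) below their p53-/- partner at all 3 times, and by gene 4074 (32.9%) and 3061 (24.7%). A difference of at least 2-fold at all 3 times was found upward for 651 probe sets (2.88%) and downward for 874 (3.86%), and limma called each of them. Of these probe sets, 31 were at least 16-fold higher and 29 at least 16-fold lower at every time. By gene, 427 (3.45%) were at least 2-fold higher and 529 (4.27%) at least 2-fold lower at all 3 times. The 18S rRNA control, which is outside the tests, was also apart: 688.1, 2549.1 and 1292.1 in p53-/- Dnmt1-/- cells against 194.0, 337.5 and 228.7 in p53-/- cells at its 3′ end. Its part in the results was not tested. The 3′ to 5′ ratio of the actin control was between 1.06 and 1.15 on all 6 arrays.

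Many large differences of untreated cells were also large in TSA. Of the 1593 probe sets at least 2-fold higher in untreated p53-/- Dnmt1-/- cells, 47.2% were at least 2-fold higher at 24 h and 56.6% at 48 h, while 14.2% and 8.6% lay on the other side of 0. Of the 1661 at least 2-fold lower, 59.2% and 69.7% were at least 2-fold lower at 24 h and 48 h, and 5.96% and 3.97% lay on the other side. In all, 1602 probe sets were at least 2-fold higher and 1920 lower at 24 h, and 1938 higher and 2015 lower at 48 h. Across probe sets, which are not independent replicates, the untreated difference correlated with that at 24 h at r = 0.705 and with that at 48 h at r = 0.785.

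**Figure D1:**
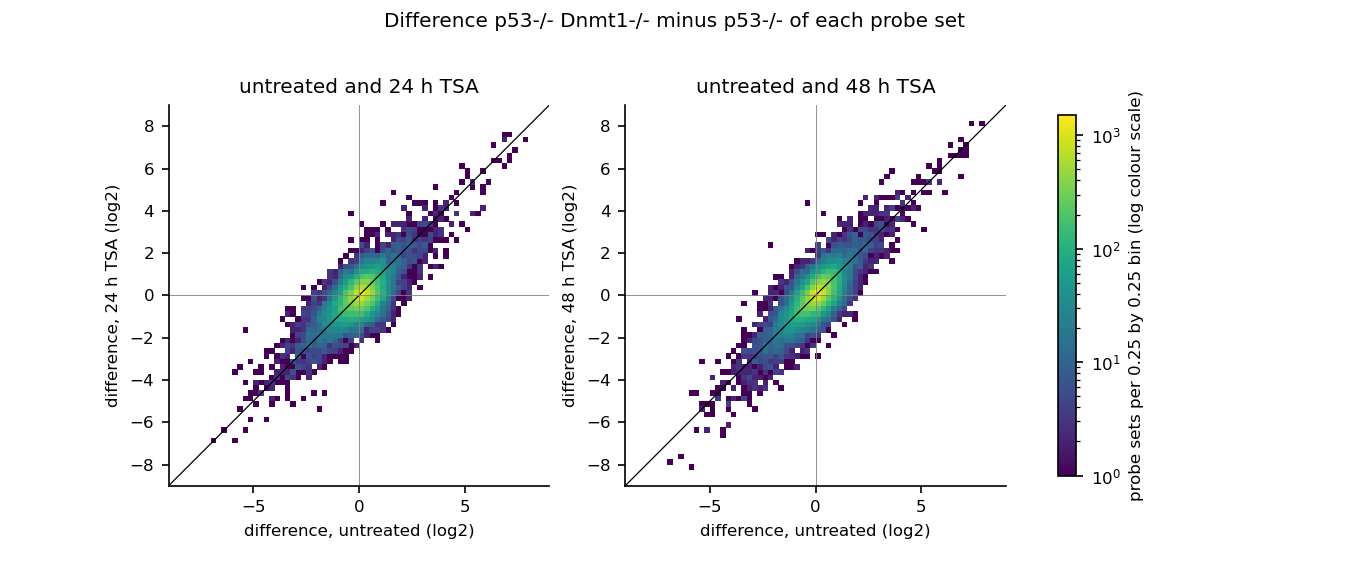
Each panel sets the untreated log2 difference of a probe set (horizontal axis, p53-/- Dnmt1-/- minus p53-/-) against its difference after 24 h or 48 h of TSA (vertical axis). Colour gives the number of probe sets in a bin, and the cloud lies along the line of equal difference, with r = 0.705 at 24 h and 0.785 at 48 h.

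Many of the differences were between a signal near the background and a high one. Of the 651 probe sets at least 2-fold higher at all 3 times, 254 were above the pooled median on all 3 p53-/- Dnmt1-/- arrays and below it on all 3 p53-/- arrays, and 199 were above it on all 6. Of the 874 lower ones, 328 were below it on all p53-/- Dnmt1-/- arrays and above it on all p53-/- arrays, and 323 were above it on all 6. The remaining 198 and 223 had at least 1 array of a genotype on the other side of the pooled median.

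The 15 named genes furthest up in p53-/- Dnmt1-/- cells were led by Upk3b, a uroplakin of urothelium and mesothelium. Its signal was 3215.0, 2483.0 and 3722.3 in p53-/- Dnmt1-/- cells at 0, 24 and 48 h, against 3.0, 2.9 and 2.4 in p53-/- cells, a mean difference of 7.78 ± 0.18 (limma adjusted p = 4.91e-05). Myrf, a membrane-bound transcription factor, read 2258.1, 1358.7 and 2190.3 against 3.6, 5.5 and 7.4, and Podxl, the sialomucin podocalyxin, 2316.5, 1839.5 and 3390.9 against 4.3, 6.1 and 12.5. Both genes were thus bright on every p53-/- Dnmt1-/- array and dim on every p53-/- array. Wt1, the transcription factor of mesothelium and gonadal ridge, read 526.7, 542.3 and 650.4 in p53-/- Dnmt1-/- cells against 0.9, 1.4 and 5.4 in p53-/- cells. Msln, the mesothelial surface protein mesothelin, read 511.7, 1156.4 and 1186.9 against 3.5, 10.8 and 17.4. The other genes of this set were the keratins Krt8, Krt14 and Krt18, the germline genes Rpl39l and Tex19.1, the neuronal glycoprotein Gpm6a, the ligand Wnt4, the integrin Itga3, the actin-binding protein Shroom3, and Frmd4b. Their mean differences ran from 4.56 (Shroom3) to 7.29 (Krt14), with limma adjusted p-values of at most 0.000315 for all 15.

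The 15 genes furthest down were led by Penk, the enkephalin precursor, with 15.8, 22.2 and 10.5 in p53-/- Dnmt1-/- cells against 3408.3, 3899.8 and 4803.2 in p53-/- cells (mean difference -7.21 ± 0.21, limma adjusted p = 8.72e-05). Plpp3, a lipid phosphatase, read 3.4, 3.5 and 2.0 against 1144.9, 1280.8 and 2418.3. Postn, the matrix protein periostin, read 10.5, 2.4 and 2.2 against 1175.8, 1619.1 and 3814.6, so its difference was -5.76 untreated and -8.14 at 48 h. Its p53-/- signal was higher at 48 h than untreated. Dkk2, a secreted Wnt antagonist, had the same shape, with 1.0, 0.6 and 0.7 in p53-/- Dnmt1-/- cells against 263.0, 691.0 and 1108.0 in p53-/- cells. Thbs2, a thrombospondin, differed evenly, by -4.50, -4.61 and -4.50. The remaining members were the matrix proteins Smoc2, Ogn, Svep1, Abi3bp and Ltbp2, the receptor Thbd (thrombomodulin), the complement protease Masp1, the extracellular superoxide dismutase Sod3, and the membrane proteins Itm2a and Tmem45a. Mean differences of the 15 ran from -4.54 to -7.21, and the highest limma adjusted p was 0.000784.

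**Figure D2:**
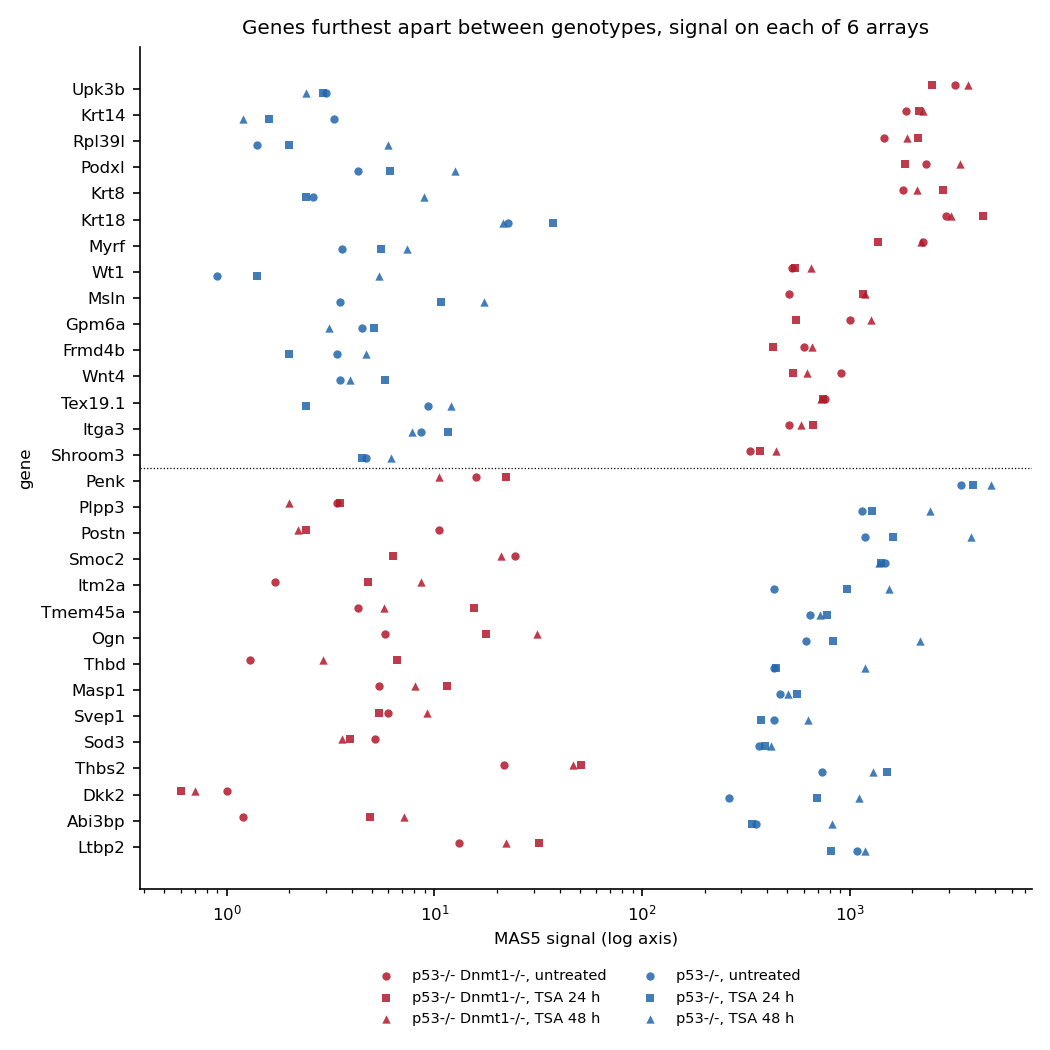
MAS5 signal (horizontal, log axis) of the 15 genes furthest up and the 15 furthest down in p53-/- Dnmt1-/- cells, with p53-/- Dnmt1-/- arrays in red and p53-/- arrays in blue and a symbol for each time. The genes were chosen for large differences at every time, so separate genotypes follow from the choice. The lowest bright signal is 263.0 (Dkk2, untreated p53-/- cells).

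The promoters of these 30 genes ranged from dense CpG to almost none, and in each direction a gene with the most and a gene with the fewest are shown, because Dnmt1 acts on this dinucleotide. The windows are RefSeq's for GRCm38.p6, and each line gives the 250 bases before the annotated start, 5′ to 3′ on the gene's strand, with every CpG in capitals.
Wnt4, higher, chr4:137277385-137277634, plus strand, 44 CpG: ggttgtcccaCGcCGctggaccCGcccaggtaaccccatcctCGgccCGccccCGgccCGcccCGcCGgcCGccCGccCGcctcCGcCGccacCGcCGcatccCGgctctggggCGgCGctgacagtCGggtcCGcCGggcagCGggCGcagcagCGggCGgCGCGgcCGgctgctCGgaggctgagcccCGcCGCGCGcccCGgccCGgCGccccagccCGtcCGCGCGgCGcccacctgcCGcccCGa
Upk3b, higher, chr5:136038246-136038495, plus strand, 2 CpG: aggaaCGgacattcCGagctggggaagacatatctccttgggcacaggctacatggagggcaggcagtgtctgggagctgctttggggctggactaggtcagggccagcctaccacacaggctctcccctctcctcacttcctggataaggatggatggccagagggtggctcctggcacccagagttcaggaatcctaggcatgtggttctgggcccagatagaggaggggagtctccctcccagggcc
Ltbp2, lower, chr12:84876492-84876741, minus strand, 16 CpG: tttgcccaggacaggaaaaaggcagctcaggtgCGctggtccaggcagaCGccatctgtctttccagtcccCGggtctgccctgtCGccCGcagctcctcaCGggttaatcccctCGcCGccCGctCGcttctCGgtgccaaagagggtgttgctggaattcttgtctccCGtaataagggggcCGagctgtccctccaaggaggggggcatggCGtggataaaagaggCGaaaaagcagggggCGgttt
Ogn, lower, chr13:49607765-49608014, plus strand, 4 CpG: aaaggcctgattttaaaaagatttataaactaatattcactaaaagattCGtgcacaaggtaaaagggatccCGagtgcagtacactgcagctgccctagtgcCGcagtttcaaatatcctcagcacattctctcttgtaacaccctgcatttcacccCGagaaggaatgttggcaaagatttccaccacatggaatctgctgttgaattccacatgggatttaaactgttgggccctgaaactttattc
Wnt4 read 906.3, 533.0 and 619.0 in p53-/- Dnmt1-/- cells against 3.5, 5.8 and 3.9 in p53-/- cells, and Upk3b, with 2 CpG in these bases, had the larger difference. Ltbp2, a latent TGF-beta binding protein, read 13.1, 31.9 and 22.0 against 1079.9, 809.1 and 1183.6. Ogn, the proteoglycan osteoglycin, read 5.8, 17.8 and 31.1 against 611.6, 829.6 and 2171.6. Of the 30 genes 20 had a RefSeq window.

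Over all genes, the share with a CpG-rich promoter was the same among those called higher and those called lower. A window of 300 bases, 250 before and 50 after the start, was called CpG-rich when it held at least 0.6 of the CpG its base composition predicts and at least 50% G and C. By that rule 6090 of 9882 genes with a window (61.6%) were CpG-rich. The share was 67.5% among the 1059 such genes called higher and 67.5% among the 1100 called lower. For genes with several windows the one with the most CpG was used. With the one of fewest CpG the shares were 60.4% among genes higher, 54.4% among genes lower and 53.2% of all, so that equality depended on the window. It also depended on the pairs. With the window of most CpG, the shares among genes higher and lower were 59.3% and 52.6% without the 48 h pair. They were 66.8% and 63.0% without the 24 h pair, and 65.8% and 66.5% without the untreated pair. With that window and all pairs, the share was 56.5% among genes at least 2-fold higher at all 3 times. Among those at least 2-fold lower it was 55.7%.

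The classes parted among the brightest genes and among those of middle level. Of the 3294 genes with the highest mean level over the 6 arrays, 587 had a window that was not CpG-rich, and of these 16.4% were called higher and 27.3% lower. Of the 2707 CpG-rich ones 16.2% were called higher and 14.7% lower. A fall of at least 2-fold at all 3 times was found for 11.6% of the genes without and 3.21% of the genes with a CpG-rich window. Without the 48 h pair the shares called lower were 12.8% and 3.80%. Col6a3, a collagen VI chain with 3 CpG in its window, read 90.2, 77.7 and 91.3 in p53-/- Dnmt1-/- cells against 2124.7, 1984.5 and 1863.6 in p53-/- cells. Prrx1, a limb mesenchyme homeobox gene with 6, had a mean difference of -4.44 ± 0.39. Among the middle 3294 genes they parted in both directions. Of those without a CpG-rich window 14.4% were higher and 15.6% lower, and of those with one 9.25% and 11.9%. Among the dimmest 3294 genes the order was the other way, with 2.22% lower of those without and 6.17% of those with a CpG-rich window. No test was made of these shares, and methylation itself was not measured.

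**Figure D3:**
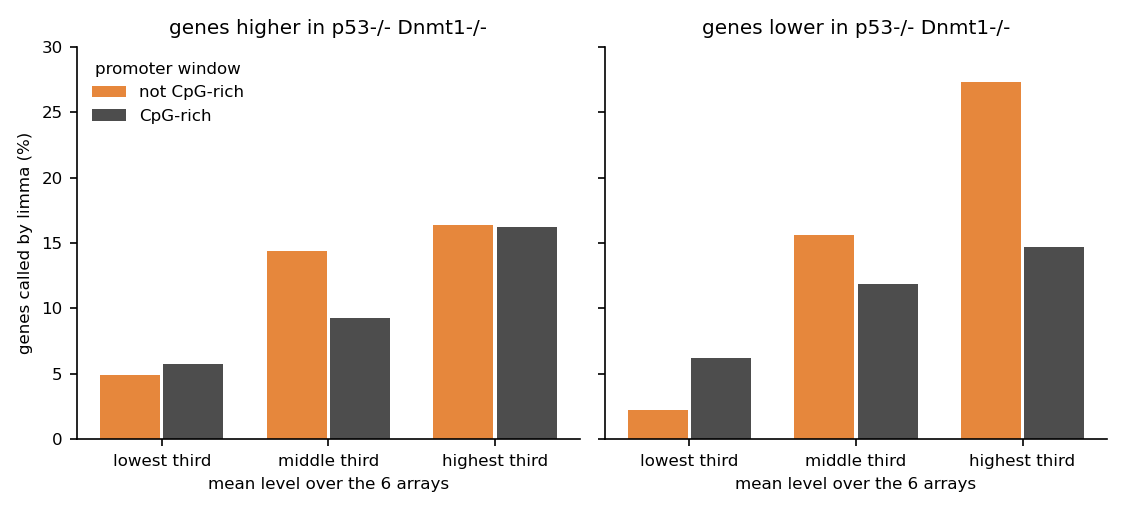
Percent of genes called higher (left) and lower (right) in p53-/- Dnmt1-/- cells by limma, for 3 classes of equal size by mean level over the 6 arrays, split by CpG content of the promoter window. Among the brightest genes 27.3% of those without a CpG-rich window were lower, against 14.7% of those with one.

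Differences were also read by chromosome. For this the 6197 genes with a mean level at or above the median gene were placed on chromosomes with RefSeq's table for GRCm38.p6. Over all of them 15.3% were called higher, 16.3% lower, and the median difference was 0.02. On the X chromosome 4.12% of 170 genes were called higher and 50.6% lower, the median difference was -0.74, and it was -0.52 untreated, -0.85 at 24 h and -0.73 at 48 h. On chromosome 10, 35.2% of 290 genes were lower and 3.79% higher, with a median of -0.40, and on chromosome 7, 23.3% of 408 were lower and 6.62% higher, with a median of -0.26. In the other direction stood chromosome 19, with 32.3% of 248 genes higher, 6.05% lower and a median of 0.34, and chromosomes 8, 15, 6 and 11, with medians of 0.31, 0.29, 0.28 and 0.20.

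Each array was also taken alone. With every gene set to its mean over the 6 arrays, the median X-linked gene stood at -0.31, -0.46 and -0.31 in p53-/- Dnmt1-/- cells at 0, 24 and 48 h, against 0.27, 0.41 and 0.43 in p53-/- cells. Chromosome 10 stood at -0.18, -0.19 and -0.20 against 0.21, 0.17 and 0.24. Chromosome 19 stood at 0.20, 0.16 and 0.20 against -0.14, -0.20 and -0.21. The genotypes did not overlap for any of these chromosomes, and the gaps exceeded the spread within a genotype, whose SD was at most 0.09. For 15 of the 20 chromosomes the arrays of the genotypes were separate, 6 with p53-/- Dnmt1-/- cells higher and 9 lower. Each of these 15 has an exact two-sided permutation p of 0.1, the smallest that 3 arrays against 3 allow, and 0.133 after adjustment over 20 chromosomes. Several gaps were small, such as -0.04 on chromosome 9, -0.08 on chromosome 4 and 0.09 on chromosome 17. Among the lower ones, the median differences of chromosomes 1, 2, 4, 9, 13 and 14 changed sign under some alternative processing.

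The shifts ran along the whole of some chromosomes and along a stretch of others. In the order of genes along the chromosome, the median difference of the first, middle and last equal share of genes was -0.67, -0.68 and -0.86 on X and 0.33, 0.35 and 0.33 on chromosome 19. On chromosome 10 it was -0.68, -0.28 and -0.27. On chromosome 15 it was 0.07, 0.41 and 0.33, and on chromosome 16 it was 0.36, 0.08 and -0.18. Running medians of 41 neighbouring genes stayed below 0 throughout X and chromosome 10 and above 0 throughout chromosomes 6 and 19. Over all genes with a probe set, dim ones included, the medians were -0.27 on X, -0.15 on chromosome 10, -0.01 on chromosome 7 and 0.27 on chromosome 19.

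**Figure D4:**
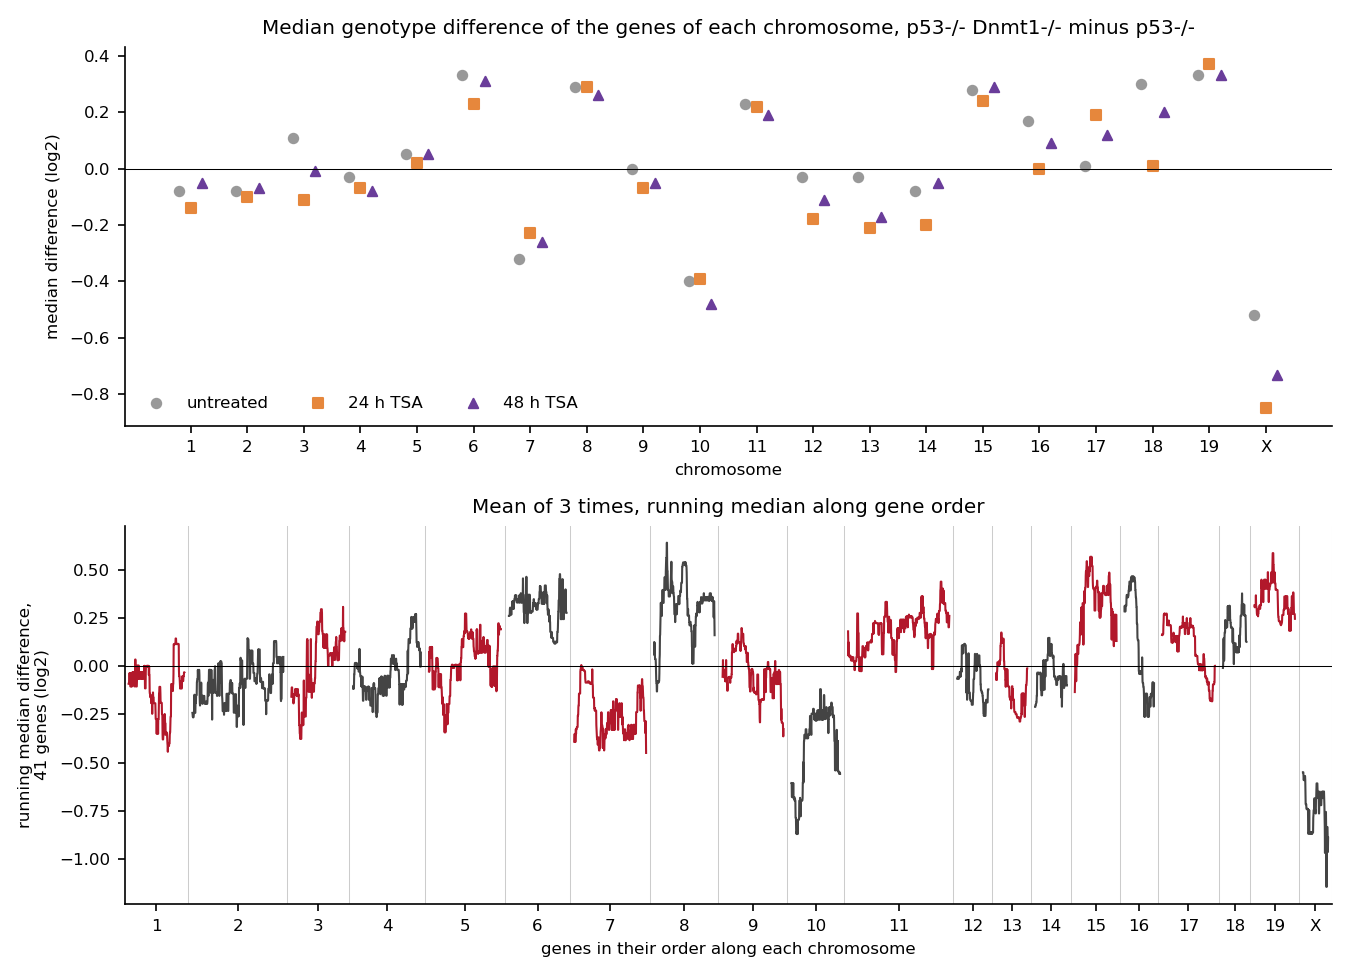
Top: median log2 difference (p53-/- Dnmt1-/- minus p53-/-) of the genes of each chromosome, with a symbol for each time. Bottom: running median over 41 genes of the mean difference, in gene order along each chromosome. X is the lowest at all 3 times, with medians of -0.52, -0.85 and -0.73, and chromosome 10 is next among the means, at -0.40.

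Xist, the RNA that coats and silences the inactive X, read 114.1, 55.7 and 85.8 in p53-/- Dnmt1-/- cells against 350.1, 406.9 and 430.3 in p53-/- cells (-2.12 ± 0.24, limma adjusted p = 0.003). Kdm6a, Kdm5c and Eif2s3x, X-linked genes with a partner on Y, were called lower, with differences of -2.23, -0.78 and -0.65, while Ddx3x, which also has one, was not called (-0.52, limma adjusted p = 0.233). Of 8 Y-linked genes on the array 3 were called higher, Uba1y, Eif2s3y and Uty, beside 11.0% of all genes. Usp9y, Tspy-ps, Sry, Kdm5d and Zfy2 were not called. Uba1y read 148.8, 203.7 and 229.3 against 30.2, 16.1 and 20.5, and Eif2s3y 26.8, 15.3 and 19.9 against 0.2, 1.2 and 1.1. Among the arrays compared, Uba1y was under 45.6 on every p53-/- array only. Eif2s3y and Uty were under 45.6 on every array of both genotypes. Against the direction of their chromosome, the X-linked homeobox gene Rhox5 (621.3, 611.1 and 668.6 against 26.7, 20.5 and 22.4), the kinase Stk26 and the ubiquitin ligase Rnf128 were called higher, by 4.22, 3.52 and 1.88. The most lowered bright X-linked genes were Tnmd, Itm2a, Capn6 and Gpc4.

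Mesothelium is the sheet of cells that lines the body cavities. Of 21 genes of mesothelium on the array 17 were called higher, 1 lower and 3 not called, with a median difference of 3.58, beside 11.0% of all genes higher and a median of 0.07 over all genes. The list was chosen with these results in view. Retinaldehyde dehydrogenases that make retinoic acid were among them, Aldh1a2 with 287.7, 300.6 and 509.8 in p53-/- Dnmt1-/- cells against 0.6, 10.7 and 1.3 in p53-/- cells, and Aldh1a1 with 139.9, 473.3 and 836.7 against 1.8, 3.0 and 3.4. The zinc-finger factor Bnc1 and the cavity-lining factor Gata6 differed by 3.81 and 3.60, and the membrane linker Ezr by 3.58. Igfbp5 was the exception, with 1.2, 11.0 and 7.2 against 456.1, 194.1 and 656.2. Efemp1, Tbx18 and Cpe were not called. Of 20 keratins 7 were called higher and 0 lower: the simple keratins Krt7, Krt8, Krt18 and Krt19, and Krt14, Krt17 and Krt80 among the stratified and hair keratins.

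Of 41 cell junction genes on the array 15 were called higher, 3 lower and 23 not called, beside 11.0% and 11.1% of all genes, with a median of 0.69. Without the 48 h pair 13 were higher and 1 lower. Over all 22626 probe sets that fit called 582 higher and 752 lower, against 2137 and 2312 with all pairs. Without the untreated pair 1723 and 1943 were called, and without the 24 h pair 1496 and 1573. The shares of all genes printed beside the lists are those with all pairs, so they are no background for counts without a pair. Cdh1, the epithelial cadherin, read 66.6, 75.8 and 87.4 in p53-/- Dnmt1-/- cells against 1.0, 9.5 and 7.6 in p53-/- cells. Desmosome genes gave 5 of 9 (Dsp, Dsg2, Pkp2, Ppl and Evpl) and tight junction genes 4 of 12 (Cldn3, Cldn6, F11r and Pard6b). The lower ones were the mesenchymal cadherins Cdh2 and Cdh11 and the surface protein Cd24a.

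Of 43 transcription factors of mesenchyme on the array 1 (Pax3) was called higher, 26 lower and 16 not called, with a median of -1.21, beside 11.0% and 11.1% of all genes. Without the 48 h pair 17 were called lower, and with any 1 of the 3 pairs left out 0 were called higher. Prrx2, the partner of Prrx1, read 44.0, 135.1 and 89.0 in p53-/- Dnmt1-/- cells against 1500.9, 1917.0 and 1512.8 in p53-/- cells, and Snai2, a repressor of epithelial genes, 4.6, 18.3 and 16.7 against 103.5, 349.1 and 248.1. Twist1, Zeb1, Foxc2, Tbx15, Osr1 and Nfix were also lower. Among factors of the heart and gonadal ridge, Gata6, Gata4 and Gata5 were higher, and Lhx9, Irx3, Mef2c, Irx5 and Lhx2 were lower, of 18 on the array. Without the 48 h pair 1 of these was higher and 4 lower.

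Hox genes encode position along the body and limb. Of 31 on the array 2 were called higher, 13 lower and 16 not called, beside 11.0% and 11.1% of all genes. Without the 48 h pair 1 was higher and 6 lower, in a fit that called 582 probe sets higher and 752 lower in all. HoxD gave 6 of 7, among them Hoxd13 with 3.9, 3.4 and 2.4 in p53-/- Dnmt1-/- cells against 187.7, 185.9 and 217.4 in p53-/- cells, and Hoxd10 with 1.3, 2.2 and 0.5 against 103.6, 177.0 and 246.5. Hoxa10, Hoxa11 and Hoxa13 were lower by -2.49, -1.51 and -1.34. Hoxc13 and Hoxa4, the higher ones, stayed under 45.6 on every array.

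Of 79 matrix genes 3 were called higher, 53 lower and 23 not called, beside 11.0% and 11.1% of all genes, with a median of -1.43. Without the 48 h pair 0 were higher and 43 lower. Fibrillar collagens gave 8 of 9. Col1a2 read 354.6, 352.3 and 696.2 in p53-/- Dnmt1-/- cells against 5572.0, 5510.7 and 6171.0 in p53-/- cells, while its partner in the type I fibre, Col1a1, was less apart, at 1371.7, 1379.1 and 2080.1 against 4928.2, 4556.8 and 5258.6. The mean differences were -3.66 ± 0.18 and -1.63 ± 0.13. Enzymes gave 13 of 18, with the crosslinking oxidase Lox at -2.64 and the protease Mmp2 at -3.39. The higher ones were the proteoglycan Dcn and the epithelial laminin chains Lamb3 and Lama5.

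In the Wnt pathway 7 of 52 members were higher, 10 lower and 35 not called, beside 11.0% and 11.1% of all genes. The counts were 4 and 9 without the 24 h pair, and 4 and 8 without the 48 h pair. Of 16 ligands 6 were higher and 0 lower: Wnt4, Wnt10a, Wnt11, Wnt6, Wnt1 and Wnt7b. Of 13 secreted antagonists 4 were lower and 0 higher: Dkk2, Dkk3, Sfrp1 and Frzb. Dkk3 read 30.9, 22.8 and 33.1 in p53-/- Dnmt1-/- cells against 577.4, 538.0 and 1320.2 in p53-/- cells. Of 15 receptors Fzd6 was higher and Fzd1, Fzd2, Fzd7, Fzd8 and Ror2 lower. Differences between these roles were not tested. Of 8 targets and feedback genes only Ccnd1 was called, lower, at -0.88 ± 0.18 (limma adjusted p = 0.0212).

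In the TGF-beta and BMP pathway 2 of 49 were called higher and 14 lower, beside 11.0% and 11.1% of all genes, and 0 and 8 without the 48 h pair. Grem1, a BMP antagonist, read 28.3, 69.3 and 42.7 in p53-/- Dnmt1-/- cells against 384.9, 521.3 and 988.8 in p53-/- cells. The activin antagonist Fst, the activin subunit Inhba, the decoy receptor Bambi and the ligands Bmp4 and Tgfb2 were also lower, and Bmp6 and Gdf10 were higher. Among 60 growth factors and receptor tyrosine kinases 11 were higher and 17 lower, 7 and 16 without the untreated pair, 7 and 15 without the 24 h pair, and 2 and 11 without the 48 h pair. The lower receptors were Pdgfra, Pdgfrb, Fgfr1, Fgfr2, Ddr2, Igf1r and Mertk, and the higher ones Ddr1, Erbb3, Met, Flt1, Flt4 and Csf1r. Pdgfrb, a receptor of mesenchymal cells, read 134.8, 89.9 and 135.6 against 515.9, 674.3 and 709.7, and Ddr1, a collagen receptor of epithelia, 771.3, 763.8 and 1322.5 against 158.8, 240.1 and 248.3. In axon guidance 8 of 51 were higher and 10 lower, and 3 and 6 without the 48 h pair. The ligand Slit2 read 13.1, 25.6 and 12.2 against 754.9, 586.3 and 881.3, with its receptor Robo1 also lower, and Slit3 was higher, at 283.4, 323.7 and 505.4 against 101.5, 120.9 and 118.8.

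Of 38 DNA replication genes on the array 17 were called higher and 0 lower, beside 11.0% and 11.1% of all genes, with a median of 0.83 untreated, 0.51 at 24 h and 1.52 at 48 h, and 7 were higher without the 48 h pair. Cdc6, which loads the replicative helicase, read 314.2, 91.5 and 182.8 in p53-/- Dnmt1-/- cells against 50.6, 17.8 and 6.9 in p53-/- cells, and Cdt1, its partner, 1892.9, 926.5 and 1294.9 against 494.4, 277.9 and 185.0. Uhrf1, which brings Dnmt1 to newly copied DNA, followed the same course, with 600.1, 266.8 and 349.6 against 290.6, 84.1 and 44.1. In both genotypes these signals were lower in TSA than untreated. Mitosis genes had no call among 28, with median differences of 0.58 untreated, -0.23 at 24 h and 1.74 at 48 h. At an unadjusted limma p under 0.05 there were 7 of these 28, beside 37.4% of all 12393 genes. Ccna2, the S-phase and mitotic cyclin A2, read 1122.6, 288.4 and 695.4 against 630.9, 255.0 and 147.7. The 24 h array of p53-/- Dnmt1-/- cells, lowest among its 3 for Ccna2, also carried the highest 18S control, and without the 24 h pair 11 mitosis genes were called higher. Among cyclins and inhibitors of their kinases 5 of 17 were lower, Ccnd1, Ccnd2, Cdkn2a, Cdkn2b and Cdkn1c, and 0 higher, and without the 24 h pair 3 were lower.

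**Figure D5:**
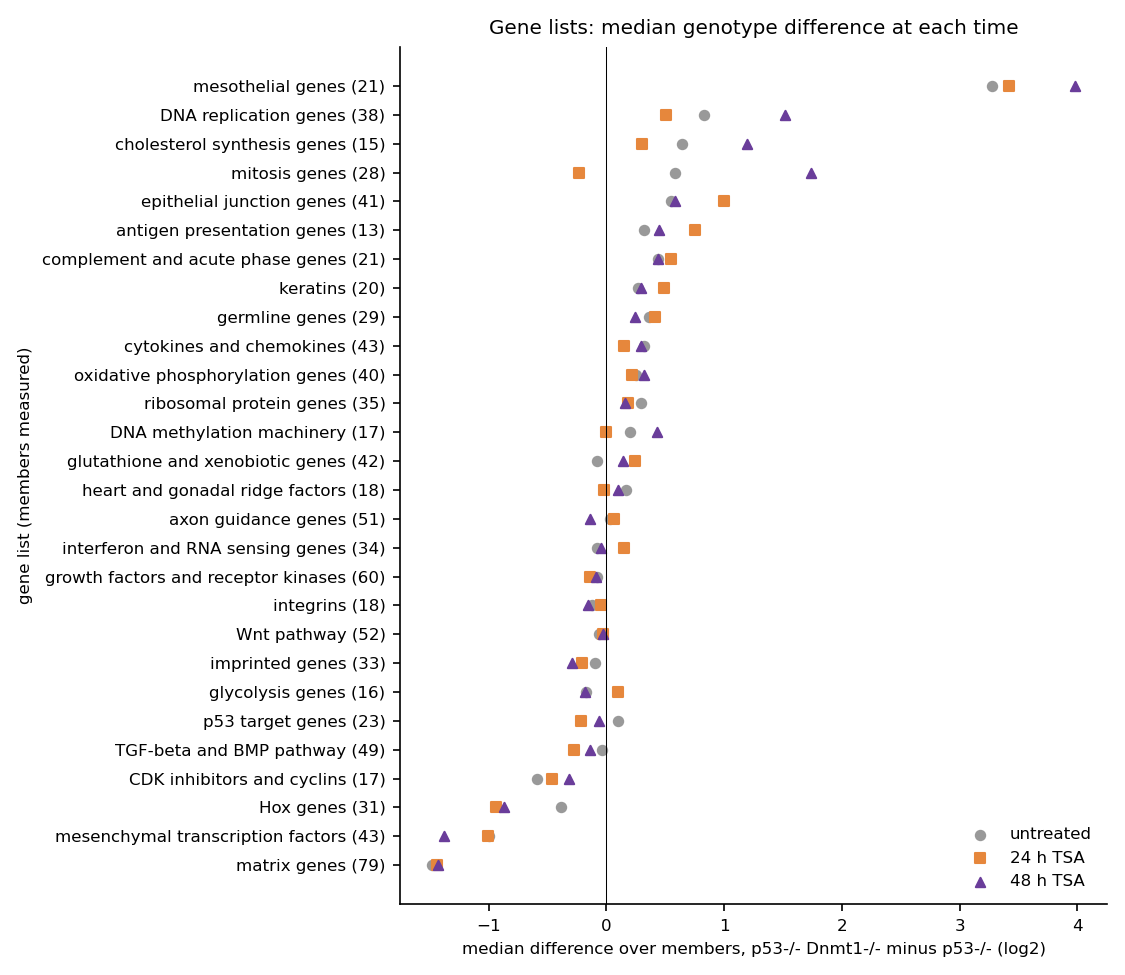
Median log2 difference (p53-/- Dnmt1-/- minus p53-/-) over the members of each gene list at 0, 24 and 48 h, with the number of members on the array in brackets. Mesothelial genes lie between 3.28 and 3.98 and matrix genes between -1.43 and -1.48, while mitosis genes change sign, at 0.58, -0.23 and 1.74.

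Of 29 germline genes 6 were higher, 1 lower and 22 not called, beside 11.0% and 11.1% of all genes, and 21 had no signal above 45.6 on any of the 6 arrays. Rpl39l, a ribosomal protein gene of testis, read 1457.9, 2132.3 and 1875.8 in p53-/- Dnmt1-/- cells against 1.4, 2.0 and 6.0 in p53-/- cells. Tex19.1, which guards the germline against transposons, differed by 5.32 on average. Piwil2, Asz1 and Taf7l also rose, beside Rhox5. Brdt, the lower one, stayed under 45.6 on all 6 arrays. Of 33 imprinted genes 4 were higher, near the share of all genes, and 10 lower, and 2 and 6 without the 48 h pair. Peg3, expressed from the paternal copy, read 958.5, 508.3 and 1299.9 against 26.9, 71.0 and 110.3, and Igf2, also paternal, 66.2, 109.9 and 92.9 against 1204.9, 993.5 and 2021.2. The neighbours Dlk1 and Meg3, one paternal and one maternal, were both lower, by -1.92 ± 0.15 and -2.35 ± 0.15.

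Of 34 interferon and RNA sensing genes 7 were higher, 5 lower and 22 not called, beside 11.0% and 11.1% of all genes, and without the 48 h pair 1 and 0, and without the 24 h pair 3 and 2. Ifit3, an interferon-induced translation inhibitor, read 20.8, 22.6 and 31.4 in p53-/- Dnmt1-/- cells against 70.5, 88.4 and 129.1 in p53-/- cells, while the interferon-induced chemokine Cxcl10 was higher by 2.64 on average. Of 13 antigen presentation genes 5 were higher, among them the class I gene H2-K1, and B2m, its partner chain, was lower. Of 43 cytokines and chemokines 11 were higher and 4 lower, 7 and 4 without the untreated pair, and 3 and 3 without the 48 h pair. Ccl2, the monocyte chemokine, read 329.1, 718.6 and 888.2 against 29.4, 58.5 and 45.9. Cxcl12, the stromal chemokine, read 430.7, 439.1 and 635.8 against 3071.6, 3191.7 and 4520.5. Complement and acute phase genes had 9 of 21 higher and 0 lower, and 5 without the 48 h pair, led by Hp (haptoglobin), Apoe and Saa3. The macrophage markers summed to 347.2, 401.8 and 328.1 against 174.1, 196.2 and 170.6, with 1 of 8 called, the receptor Csf1r.

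Oxidative phosphorylation genes had 12 of 40 higher and 2 lower, beside 11.0% and 11.1% of all genes, with a median of 0.25, 4 and 0 without the 24 h pair, and 2 and 0 without the 48 h pair. Cholesterol synthesis genes had 7 of 15 higher and 0 lower, but 2 without the untreated pair and 0 without the 48 h pair. Of 42 glutathione and xenobiotic genes 10 were higher and 6 lower, and 6 and 1 without the 48 h pair. Mgst1, a membrane glutathione transferase, read 1137.1, 957.0 and 1262.4 in p53-/- Dnmt1-/- cells against 28.8, 77.0 and 62.0 in p53-/- cells. In glycolysis 5 of 16 genes were higher and 3 lower, and 2 and 0 without the 48 h pair, with the lactate carrier Slc16a3 and the kinase Hk2 higher and Hk1 lower. Ribosomal protein genes had 5 of 35 higher, near the share of all genes, and 0 without the 48 h pair. Of 23 p53 target genes Plk3 was higher and Sesn1, Sesn2 and Zmat3 lower, and none was called without the 48 h pair. Of 18 integrins Itga3 and Itgb2 were higher and Itga7, Itgav and Itgb5 lower, and without the 48 h pair none was lower.

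Some genes had a genotype difference that changed with TSA, and those below are examples, not a count. These were chosen for that change, so their values are a description. Tex101, a germ cell surface protein, read 4.1, 212.8 and 253.8 in p53-/- Dnmt1-/- cells against 7.4, 2.8 and 1.8 in p53-/- cells. In p53-/- Dnmt1-/- cells it was thus dim untreated and bright in TSA. Hp read 481.3, 110.7 and 151.3 against 2.1, 2.4 and 7.5, and its difference was 5.19 untreated and 3.11 at 48 h. Dcn, the proteoglycan decorin, read 1097.9, 621.2 and 1611.5 against 73.8, 234.2 and 551.8, where the p53-/- signal was higher in TSA and the difference smaller. Cxcl14, a chemokine, read 1.7, 1.3 and 0.8 against 40.8, 552.0 and 203.2, and Prg4, the lubricant lubricin, 50.2, 70.1 and 37.3 against 43.4, 273.5 and 208.0. In Klhdc8a and Blvrb a large untreated deficit was smaller in TSA, with differences of -3.40, -0.93 and -0.49 for Klhdc8a and -2.66, 0.35 and -0.29 for Blvrb. Psd was the one gene at least 2-fold apart in opposite directions untreated and at both times of TSA, with 9.2, 91.9 and 46.9 against 31.4, 36.3 and 14.5.

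At the other end, some bright genes barely differed. Among the brightest 10% of probe sets the 6 genes with the smallest differences were Ostc, Vdac3, Cox6b1, Rps9, Mrpl13 and Vamp3, none of which exceeded 0.06 in size at any time. Vdac3, a mitochondrial channel, read 1164.9, 982.9 and 878.6 in p53-/- Dnmt1-/- cells against 1130.8, 959.6 and 857.9 in p53-/- cells. Genes beside the threshold for a call were Srsf2 and Nkx2-5 on the higher side, with mean differences of 0.72 ± 0.19 (called) and 0.91 ± 0.25 (not called), and Arid3b and Fbrs on the lower side, at -0.61 ± 0.16 (called) and -0.76 ± 0.20 (not called). Of 4956 genes with more than 1 probe set, 7 had probe sets called in opposite directions, and none had probe sets at least 2-fold apart in opposite directions at all 3 times.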

How the data were processed

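RNA from 7 mouse embryonic fibroblast samples was measured on Affymetrix arrays, 1 array per sample, and the 6 arrays with a partner of the other genotype at the same time were compared. The authors deposited 1 linear intensity (signal) per probe set, made with MAS5 per the submitters' processing notes. The version, scaling target and detection calls are unstated, and the mean after trimming 2% at each side was 150.05 to 150.06 on every array. These values were used without further scaling. Of 22690 probe sets 64 controls were left out. Of the rest 20380 carried 1 gene symbol, 691 several and 1555 none in the platform annotation, and 20351 symbols were updated through Entrez identifiers.

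Signals were taken as log2(signal + 11.4), where 11.4 is the 25th percentile of all signals. limma 3.58.1 in R 4.3.3 was fitted with genotype and time as terms, time being the block, with an intensity trend and 2 residual degrees of freedom, and p-values were adjusted by Benjamini and Hochberg. The fit was tested on simulated data first. With 1 array per genotype and time, the number of arrays limits the precision. Exact permutation tests of chromosome medians used scipy 1.17.1. Promoter windows and chromosomes came from RefSeq for GRCm38.p6.

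The genes named are the 15 on each side with the largest smallest-of-3 difference among those called, the largest members of each list, the genes whose difference changed most with TSA or turned over, the 6 least different bright genes and those beside the threshold. Genes named by chromosome, sex chromosome or promoter class were chosen after their values were seen. The comparison, gene lists and rules were chosen with earlier results of these data known. Alternatives tried were the offset, a filter on dim probe sets, quantile and median scaling, no trend, no time block, robust moderation, leaving out each time pair, averaging probe sets, and a stricter CpG rule.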

Additional observations from a re-analysis of the deposited data

Results flagged for a closer look

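Psd was at least 2-fold apart in opposite directions untreated and in TSA, with log2 differences (p53-/- Dnmt1-/- minus p53-/-) of -1.05 untreated, 1.11 at 24 h and 1.17 at 48 h, and that change was not tested.

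The array of p53-/- Dnmt1-/- cells taken 2 weeks after TSA removal was used in no comparison. On it all 15 of the genes furthest up stood above all 3 p53-/- arrays, with signals of 124.5 to 2718.8 and a median of 1135.2. All 15 of the genes furthest down stood below all 3 p53-/- arrays, with signals of 0.8 to 37.8 and a median of 7.8. Of the 15 up, 4 were at or above the lowest of the 3 p53-/- Dnmt1-/- arrays compared. Of the 15 down, 11 were at or below the highest of those arrays.

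The 18S rRNA control at its 3′ end read 688.1, 2549.1 and 1292.1 in p53-/- Dnmt1-/- cells at 0, 24 and 48 h, each above all 3 p53-/- arrays, which read 194.0, 337.5 and 228.7.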

How the results depend on the processing

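With 3 pairs of arrays and no replicate cultures, the calls rest most on the 48 h pair. Leaving out 1 pair gave 582 to 1723 probe sets higher and 752 to 1943 lower by limma, against 2137 and 2312, with the fewest without the 48 h pair and 1 residual degree of freedom each time. Without the time block there were 1600 higher and 1857 lower. No paired analysis by replicate number was possible because every group holds 1 array, so time served as the block. With the filter on dim probe sets 4495 of 13641 were above their partner at all 3 times. At least 2-fold higher at all 3 times were 983 probe sets with an offset of 1 and 377 with an offset at the pooled median, and 523 were lower with the last. Over the remaining 2 times, 752 to 979 were at least 2-fold higher. The CpG-rich share with the filter was 73.5% among genes higher and 68.5% among genes lower, both under the 76.3% of all. With at least 0.75 of predicted CpG and 55% G and C it was 46.5% among genes higher, 45.5% among genes lower and 42.3% of all. With the window of fewest CpG, an alternative chosen after seeing the data, it was 60.4%, 54.4% and 53.2%. Without 1 pair it was 59.3% to 66.8% among genes higher and 52.6% to 66.5% among genes lower. The cause of these shifts was not tested, beyond the fewer probe sets or times that a filter or a left-out pair leaves. All 30 genes furthest apart kept their call under every alternative of the limma fit, 330 values in all, with adjusted p at most 0.00803. They were chosen from the called genes for large differences at every time, so this does not show how stable the other calls are. Of 180 chromosome medians under alternatives, also chosen after seeing the data, 171 kept their sign. Those that did not were on chromosomes 1, 2, 3, 4, 9, 12, 13 and 14.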

Other observations

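Of 6 muscle markers 4 were called higher in p53-/- Dnmt1-/- cells, beside 11.0% of all genes, and their summed signal was 351.8, 1070.9 and 720.5 at 0, 24 and 48 h, against 76.7, 92.6 and 60.7 in p53-/- cells. Des, the muscle intermediate filament desmin, read 127.3, 557.9 and 299.9 against 10.3, 14.6 and 6.8. Of 5 pluripotency markers 1 was called, Lin28a, an RNA-binding protein of early embryos, with 86.2, 53.4 and 49.1 against 1.0, 1.1 and 1.4.

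On the array taken after TSA removal, the median X-linked gene stood at -0.55 and the median gene of chromosome 10 at -0.56, on the scale used for the other arrays. The 6 chromosomes that were higher in p53-/- Dnmt1-/- cells on the arrays compared stood near or below 0 on this one, at 0.01 for chromosome 19, 0.03 for 6, -0.06 for 8, -0.07 for 15, -0.11 for 11 and -0.21 for 17. Most other chromosomes were also below 0 on it, such as 1 at -0.12, 5 at -0.11 and 9 at -0.21, while 16 and 18 stood at 0.18 and 0.16. Its median signal was 41.9, and it was not among the 6 arrays whose mean sets the 0 of this scale. Whether the shifts were kept after TSA removal was not tested.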
